A study of Homo sapiens with 6 samples.

Results

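The ephrins, the Eph receptors, the semaphorins, the plexins and the neuropilins, the main contact and secreted cues of axon guidance, were described in A549 cells with altered HOXB9. They were chosen by gene name, as the protein-coding genes whose symbols follow the EPHA, EPHB, EFNA, EFNB, SEMA, PLXN and NRP series. The rule used no measured value, though earlier results of these data were known. It took 53 of the 58735 genes in the tables. These were 9 EphA receptors, 5 EphB receptors, 5 ephrin-A ligands, 3 ephrin-B ligands, 7 secreted semaphorins of class 3, 13 membrane-bound semaphorins, 9 plexins and 2 neuropilins. A549 is a human lung adenocarcinoma line of alveolar epithelial origin. RNA from 6 libraries was sequenced, 2 in each of 3 groups. T133A cells were stably infected with a PLVX lentivirus carrying HOXB9 in which a threonine is replaced by alanine (T133A). KO cells carried the lentivirus that the labels name HOXB9 KO, and WT cells carried the lentivirus with unchanged HOXB9. All 3 groups therefore carried a vector, and uninfected cells were not analysed here. The labels do not say whether a group is 1 clone, how the knockout was made, or whether a group's 2 libraries came from separate cultures. P-values here therefore reflect the spread between libraries, which may be technical.

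Ephrins and Eph receptors act between touching cells. An ephrin on 1 cell binds an Eph receptor kinase on its neighbour, and both cells can respond, usually with retraction or sorting. Semaphorins signal through plexins, whose inner domain acts on small GTPases and the cytoskeleton, and most class 3 semaphorins need a neuropilin as co-receptor. In epithelia and in lung tumours the same proteins are known for roles in cell sorting, migration and vessel growth. HOXB9 is a homeobox transcription factor of the posterior HOX class.

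HOXB9 itself had 4777 and 3577 reads in T133A, 239 and 286 in KO, and 3807 and 3889 in WT. These counts do not separate vector-borne from endogenous HOXB9 transcripts. Genes were compared with edgeR's quasi-likelihood test and Benjamini-Hochberg adjustment over 16340 genes. HOXB9 fell in KO against WT, with a log2 fold change of -3.88 (SE 0.14, edgeR adjusted p = 3.27e-16), and did not pass the threshold in T133A against WT (adjusted p = 0.495). Libraries held 16299059 to 18745432 counts, and the 53 genes took 0.245% to 0.301% of them. The keratins KRT8 and KRT18 made up most of the summed level of the 6 A549 epithelial markers, which was 8422 to 10085 CPM in T133A, 7899 to 8874 CPM in KO and 8657 to 9254 CPM in WT. Of these markers, KRT7 rose in T133A against WT, log2 fold change 0.58 (SE 0.11, edgeR adjusted p = 0.00121). In KO against WT KRT7 rose, log2 fold change 1.02 (SE 0.11, edgeR adjusted p = 1.38e-07), while the adhesion proteins EPCAM, log2 fold change -3.10 (SE 0.21, edgeR adjusted p = 4.01e-11), and CDH1, log2 fold change -0.88 (SE 0.11, edgeR adjusted p = 1.34e-06), fell. KRT8, KRT18 and KRT19 passed in neither. The summed level of 8 neuronal markers was 108 to 114 CPM in T133A, 21.2 to 23.8 CPM in KO and 103 to 104 CPM in WT, carried by SYT1, SNAP25 and RBFOX3, which all fell in KO against WT. SNAP25 rose in T133A against WT, log2 fold change 0.49 (SE 0.14, edgeR adjusted p = 0.0262). SYN1 ran the other way at low counts, with 7 and 3 reads in T133A, 28 and 21 in KO, and 4 and 3 in WT, and STMN2 and ELAVL4 had 0 counts in every library. The summed level of 7 fibroblast markers was 40.4 to 42.3 CPM in T133A, 9.71 to 10.7 CPM in KO and 41.9 to 42.4 CPM in WT. LUM had 20.6 and 25.5 CPM in T133A, 0.243 and 0.215 CPM in KO, and 21.6 and 20.9 CPM in WT, COL3A1 and DCN were likewise lower in KO, and COL1A1 rose in KO against WT, log2 fold change 0.57 (SE 0.20, edgeR adjusted p = 0.0255). The summed level of 7 endothelial markers was 2.18 to 2.35 CPM in T133A, 0.304 to 0.323 CPM in KO and 0.836 to 1.87 CPM in WT, with PECAM1 at 30 and 28 reads in T133A, 1 and 0 in KO, and 20 and 7 in WT. Summed haematopoietic markers were 11.5 to 13.6 CPM in T133A, 5.65 to 11.3 CPM in KO and 8.70 to 11.98 CPM in WT. Mitochondrial genes took 8.51% to 8.91% of counts in T133A, 4.45% to 5.60% in KO and 7.84% to 7.87% in WT. Genes with a count numbered 23949 and 24182 in T133A, 23139 and 22899 in KO, and 24645 and 24880 in WT. The 2 libraries of a group differed by a chi-square per degree of freedom of 10.1 in T133A, 12.2 in KO and 2.45 in WT. Each pair thus differed beyond sampling noise, and least in WT. The test pooled the spread over all 3 groups, so its p-values do not follow these unequal pairs. The neuronal, fibroblast and endothelial sums, the mitochondrial share and the genes detected all moved with KO, and their part in the results was not tested. In these bulk libraries, fewer cells expressing a gene and less RNA per cell cannot be told apart.

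Levels are given as CPM, a gene's count relative to the total of its library, after TMM scaling, in replicates 1 and 2 of each group. A gene passed the test where its adjusted p was under 0.05. Of the 53 genes, 45 had enough counts to be tested. Of these, 42 reached the filter's level in all 3 groups. The exceptions were PLXNA4 and SEMA7A, which reached it in T133A and KO, and SEMA3G, which reached it in T133A alone. PLXNA4 could enter the test only through the groups where it was high, so it is described by its reads. It remains in the counts below, and those without it follow them. The other 8, EPHA1, EPHA3, EPHA8, EPHB1, SEMA4A, SEMA5A, SEMA5B and SEMA6D, had 0 to 10 counts per library and are not compared. Of the 45, 31 passed in at least 1 comparison, 7 of them in all 3, and 14 passed in none.

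T133A against WT gave 9 genes higher and 4 lower, 28.9% of those tested, where 9.55% of all genes and 10.8% of protein-coding genes tested passed in either direction. KO against WT gave 8 higher and 18 lower, 57.8% of those tested, beside 46.6% of all genes and 50.4% of protein-coding genes. T133A against KO gave 18 higher and 3 lower, 46.7% of those tested, beside 39.9% of all genes and 43.5% of protein-coding genes. Without PLXNA4, 8 were higher in T133A against WT and 7 in KO against WT. Of the 42 members at the filter's level in all 3 groups, 28.6% passed in T133A against WT. In KO against WT 59.5% of them passed, and in T133A against KO 50%. By direction, all genes gave 5.58% higher and 3.97% lower in T133A against WT, 23.6% and 23% in KO against WT, and 20.3% and 19.6% in T133A against KO. With a log2 fold change of at least 1 in size as well, 3 members were higher and 1 lower in T133A against WT beside 2.64% of all genes. At that size 4 were higher and 11 lower in KO against WT beside 15.2%, and 5 were higher and 2 lower in T133A against KO beside 12.8%. Without PLXNA4, 2 were higher in T133A against WT and 3 in KO against WT at that size. The libraries of the groups compared did not overlap for 30 of the 45 members in T133A against WT (53.6% of all genes), 33 in KO against WT (75.4%) and 37 in T133A against KO (67%). The median log2 fold change of the 45 was 0.10, -0.13 and 0.40 in these comparisons, where that of all genes was 0.00, 0.00 and -0.01. Depth bears on such shares, so they were also taken at a mean of at least 5 CPM. There, 11 of 31 members passed in T133A against WT (35.5%, against 11.6% of protein-coding genes at that level), 20 in KO against WT (64.5% against 53.5%) and 19 in T133A against KO (61.3% against 46.4%). The first 2 comparisons share the WT libraries. The 4 lower genes of T133A against WT became 2 without WT replicate 1 and 2 without WT replicate 2. The 8 higher genes of KO against WT became 5 without WT replicate 2. The 3 lower genes of T133A against KO became 5 without T133A replicate 1, without T133A replicate 2 and without KO replicate 1.

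**Figure D1:**
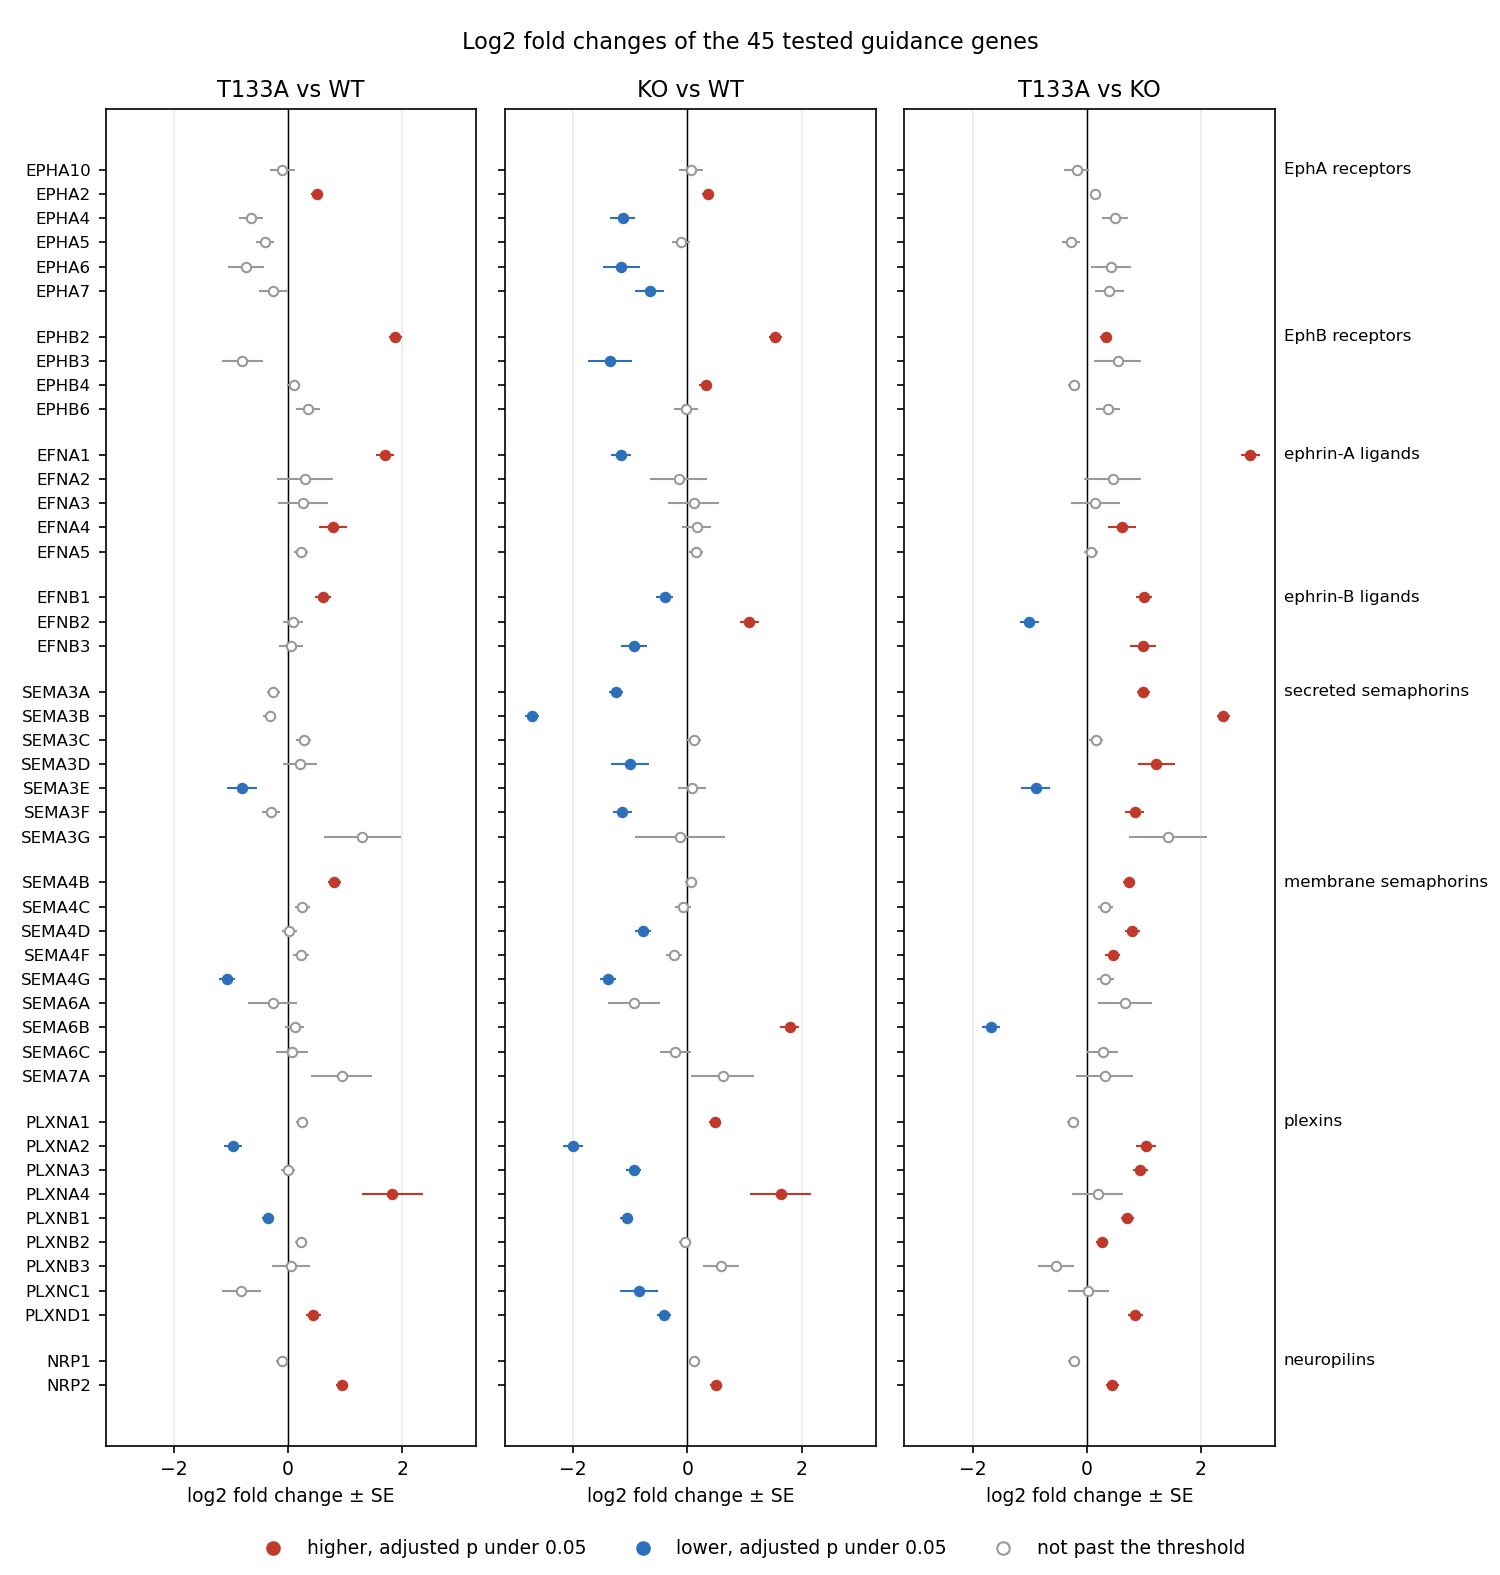
Log2 fold changes (x axis) with standard errors for the 45 tested genes, by family, in T133A against WT, KO against WT and T133A against KO, with filled points for adjusted p under 0.05. SEMA3B lies farthest to the left in KO against WT at -2.72, and EFNA1 farthest to the right in T133A against KO at 2.86.

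EFNA1, EFNB1 and PLXND1 were higher in T133A than in WT and lower in KO than in WT. EPHB2, NRP2 and EPHA2 were higher than WT in both T133A and KO. EFNB2, lower in T133A than in KO, and EPHA7 held the letters TTTATNG, a pattern of the kind posterior HOX proteins bind, in the 250 bases before a start site. The DNA before the starts of EFNB1, PLXND1 and EPHB2 is shown for these differences, and that of EFNB2 and EPHA7 for the letters. The choice did not rank genes by the size of the change, though EPHB2 had the greatest rise in T133A against WT. NRP2 and EPHA2 are not shown. The sequences are from the RefSeq promoter table of GRCh38.p14, 5′ to 3′ on the gene's strand. Capitals in the first 3 mark GGGCGG, the GC box, on either strand, and capitals in the last 2 mark TTTATNG on either strand. Bases that GENCODE 29 places in an exon were left out.
EFNB1 (chrX:68828771-68828996, plus strand): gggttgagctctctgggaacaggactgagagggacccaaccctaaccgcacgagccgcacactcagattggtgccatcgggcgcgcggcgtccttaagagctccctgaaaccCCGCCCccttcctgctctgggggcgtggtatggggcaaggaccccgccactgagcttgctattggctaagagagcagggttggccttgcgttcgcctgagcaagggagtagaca
PLXND1 (chr3:129606819-129606926, minus strand): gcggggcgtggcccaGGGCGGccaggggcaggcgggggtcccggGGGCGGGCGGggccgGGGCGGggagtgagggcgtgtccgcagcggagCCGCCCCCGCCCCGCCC
EPHB2 (chr1:22710588-22710837, plus strand): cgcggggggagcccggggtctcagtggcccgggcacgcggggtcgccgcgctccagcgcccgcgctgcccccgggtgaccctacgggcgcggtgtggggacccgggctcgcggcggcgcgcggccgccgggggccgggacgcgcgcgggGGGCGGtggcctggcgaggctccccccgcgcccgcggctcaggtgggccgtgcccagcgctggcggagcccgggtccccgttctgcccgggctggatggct
EFNB2 (chr13:106535663-106535912, minus strand): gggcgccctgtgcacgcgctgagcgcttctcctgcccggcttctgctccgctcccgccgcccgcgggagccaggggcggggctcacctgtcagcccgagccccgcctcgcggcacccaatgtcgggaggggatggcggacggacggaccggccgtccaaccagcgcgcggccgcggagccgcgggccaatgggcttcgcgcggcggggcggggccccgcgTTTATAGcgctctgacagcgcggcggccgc
EPHA7 (chr6:93417383-93417632, minus strand): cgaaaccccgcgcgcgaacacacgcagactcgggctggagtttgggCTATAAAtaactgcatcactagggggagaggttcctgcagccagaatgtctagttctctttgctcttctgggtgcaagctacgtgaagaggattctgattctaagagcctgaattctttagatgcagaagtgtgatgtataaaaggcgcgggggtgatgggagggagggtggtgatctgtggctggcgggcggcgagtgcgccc
The whole window before EFNA1 lies in bases that GENCODE 29 places in an exon. It held 5 GC boxes, 39 to 123 bases before the RefSeq start, with 73.2% G and C. GGGCGG was found on either strand in 42.6% of all 35116 windows of 250 bases and in 54 of the 74 windows (73%) of the 47 genes here that had one. TTTATNG was found in 8.93% of all windows and in 2 of the 74 windows here (2.7%), those of EFNB2 and EPHA7. In EFNB2 it lies 24 to 30 bases before the start and reads TTTATAG, and in EPHA7, at 1 of 3 listed starts, it lies on the other strand 198 to 204 bases before. Both matches also hold the letters TATA, and in PLXND1 some GC boxes overlap each other. The AP-1 pattern TGANTCA was found in 6.57% of all windows and here in that of PLXNC1. A match describes letters in a window and not a bound site.

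Among the EphA receptors, EPHA2 was the most abundant per transcript length, and it was higher in T133A and in KO than in WT. Of the 6 tested EphA genes, EPHA2 was the 1 that passed in T133A against WT. In KO against WT 1 was higher and 3 were lower. Those that passed made 16.7% and 66.7% in these comparisons, beside 9.55% and 46.6% of all genes. In T133A against KO 0 passed, beside 39.9% of all genes. EPHA2 (ENSG00000142627, chr1:16124337-16156087, GRCh38), the receptor for ephrin-A1 that is abundant in many carcinomas, had 298 and 274 CPM in T133A, 273 and 242 CPM in KO, and 197 and 205 CPM in WT. Both WT libraries lay below the other 4. The log2 fold change was 0.51 (SE 0.10, edgeR adjusted p = 0.00165) in T133A against WT and 0.36 (SE 0.10, edgeR adjusted p = 0.00618) in KO against WT. The T133A result was lost without WT replicate 1 (adjusted p = 0.0695), and the KO result with the GC and length correction (adjusted p = 0.165), with the replicate block and that correction (adjusted p = 0.22), without WT replicate 1 (adjusted p = 0.104) and without WT replicate 2 (adjusted p = 0.0548). On the FPKM scale, which divides by gene length, EPHA2 averaged 68.2 ± 2.91 in T133A, 61.8 ± 3.90 in KO and 47.9 ± 1.17 in WT (SD, n = 2 each).

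The 3 EphA genes that fell in KO were all low ones. EPHA4, a receptor that binds ephrins of both classes, had 6.21 and 7.82 CPM in T133A, 3.76 and 6.14 CPM in KO, and 10.4 and 11.5 CPM in WT. KO was lowest, T133A lay between the other groups, and no groups overlapped. The KO against WT log2 fold change of -1.13 (SE 0.22, edgeR adjusted p = 0.000182) passed, and T133A against WT, log2 fold change -0.64 (SE 0.21, edgeR adjusted p = 0.0556), fell just short and passed under 10 of 16 alternatives. EPHA6 had 1.90 and 1.71 CPM in T133A, 1.09 and 1.56 CPM in KO, and 2.86 and 3.12 CPM in WT, with a KO against WT log2 fold change of -1.16 (SE 0.33, edgeR adjusted p = 0.00578). That result was lost with DESeq2 (adjusted p = 0.0583) and without KO replicate 1 (adjusted p = 0.0562). EPHA7, like EPHA4 a receptor studied mainly in the developing nervous system, had 3.22 and 4.53 CPM in T133A, 2.97 and 2.91 CPM in KO, and 4.85 and 4.46 CPM in WT, and here T133A overlapped WT. Its KO against WT log2 fold change of -0.66 (SE 0.25, edgeR adjusted p = 0.0357) was lost in 8 of 15 alternatives, among them without WT replicate 1 (adjusted p = 0.182), without WT replicate 2 (adjusted p = 0.0883), without KO replicate 1 (adjusted p = 0.099) and without KO replicate 2 (adjusted p = 0.116). EPHA5 had 12.5 and 16.99 CPM in T133A, 19.2 and 16.7 CPM in KO, and 19.5 and 19.4 CPM in WT and passed no comparison.

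Among the EphB receptors, EPHB2 had the greatest rise of all 45 genes in T133A against WT, and it rose in KO as well. EPHB2 (ENSG00000133216, chr1:22710839-22921500), a kinase that sorts cells along the intestinal crypt and is bound by B-class ephrins, had 137 and 118 CPM in T133A, 97.4 and 104 CPM in KO, and 36.7 and 32.7 CPM in WT. All 4 libraries of T133A and KO lay far above both WT libraries. The level was 3.67-fold that of WT in T133A, a log2 fold change of 1.88 (SE 0.12, edgeR adjusted p = 5.64e-11). In KO it was 2.90-fold that of WT, a log2 fold change of 1.54 (SE 0.12, edgeR adjusted p = 2.85e-10). T133A exceeded KO with a log2 fold change of 0.34 (SE 0.11, edgeR adjusted p = 0.0172), a difference that was lost without T133A replicate 1 (adjusted p = 0.0928) and without KO replicate 1 (adjusted p = 0.12).

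The other EphB receptors moved less or were low. EPHB4, the receptor for ephrin-B2 on veins and many epithelia, had 95.6 and 80.7 CPM in T133A, 102 and 103 CPM in KO, and 78.3 and 86.5 CPM in WT. T133A overlapped WT and KO lay above both. The KO against WT log2 fold change of 0.32 (SE 0.11, edgeR adjusted p = 0.0209) was lost with the GC and length correction (adjusted p = 0.109), with the replicate block and that correction (adjusted p = 0.156), without WT replicate 1 (adjusted p = 0.254), without WT replicate 2 (adjusted p = 0.0628) and without KO replicate 2 (adjusted p = 0.0746). EPHB3 had 1.84 and 1.41 CPM in T133A, 1.03 and 1.18 CPM in KO, and 3.86 and 1.84 CPM in WT, with the first WT library well above the second. Its KO against WT log2 fold change of -1.35 (SE 0.39, edgeR adjusted p = 0.00653) was lost without WT replicate 1 (adjusted p = 0.295). EPHB6, a receptor without kinase activity, passed no comparison at a mean of 6.65 ± 0.429 CPM in T133A, 5.13 ± 0.734 CPM in KO and 5.23 ± 0.214 CPM in WT.

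**Figure D2:**
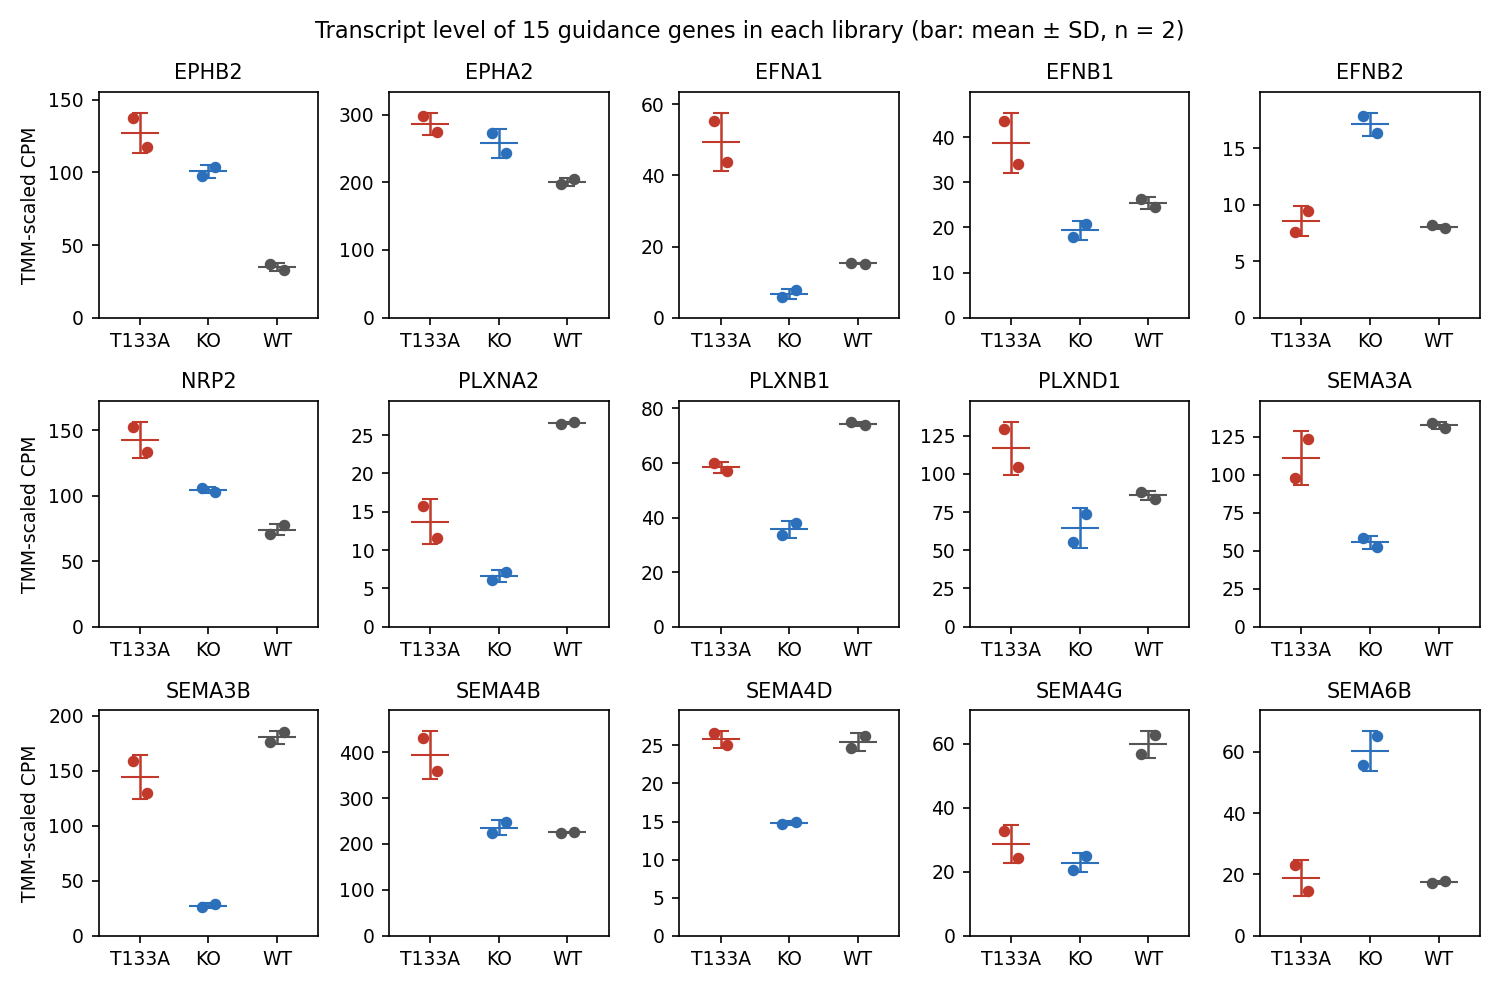
CPM after TMM scaling (y axis, from 0) of 15 members in each of the 6 libraries, with a point per library, and lines for the mean and SD of T133A, KO and WT (n = 2 each). EFNA1 separates all 3 groups, with T133A at 43.6 to 55.2 CPM, KO at 5.77 to 7.75 CPM and WT at 15.1 to 15.4 CPM, and EPHB2 has both WT libraries below the other 4.

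Among the ephrin-A ligands, EFNA1 separated all 3 groups, high in T133A and low in KO. EFNA1 (ENSG00000169242, chr1:155127460-155134857) encodes ephrin-A1, a membrane-anchored ligand of EPHA2 first found as a gene induced by tumour necrosis factor in endothelium. It had 55.2 and 43.6 CPM in T133A, 5.77 and 7.75 CPM in KO, and 15.4 and 15.1 CPM in WT. T133A was highest, KO lowest, and no library of any group overlapped another group. Means were 49.4 ± 8.22 CPM in T133A, 6.76 ± 1.40 CPM in KO and 15.2 ± 0.184 CPM in WT (SD, n = 2 each). T133A stood at 3.24-fold the WT level, a log2 fold change of 1.70 (SE 0.15, edgeR adjusted p = 3.87e-08). KO was 2.24-fold lower than WT, a log2 fold change of -1.17 (SE 0.17, edgeR adjusted p = 9.63e-06). T133A stood at 7.28-fold the KO level, a log2 fold change of 2.86 (SE 0.17, edgeR adjusted p = 2.95e-12). All 3 results held in 16 of 16 alternatives.

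EFNA1 lies in a row with EFNA4 and EFNA3 on chromosome 1, 57.91 kb from EFNA4 and 39.92 kb from EFNA3. EFNA4 had 6.84 and 8.11 CPM in T133A, 4.92 and 4.79 CPM in KO, and 3.04 and 5.58 CPM in WT. T133A lay above both other groups, and KO overlapped WT, whose libraries differed from each other. It passed in T133A against WT, a log2 fold change of 0.79 (SE 0.24, edgeR adjusted p = 0.0427), and in T133A against KO, a log2 fold change of 0.62 (SE 0.24, edgeR adjusted p = 0.0441). The first was lost in 8 of 16 alternatives, among them without WT replicate 1 (adjusted p = 0.606), without T133A replicate 2 (adjusted p = 0.109), without KO replicate 1 (adjusted p = 0.0539) and without KO replicate 2 (adjusted p = 0.0539), and without WT replicate 2 the log2 fold change was 1.29. The second was lost with library-size scaling only (adjusted p = 0.0801), with DESeq2 (adjusted p = 0.176), without T133A replicate 2 (adjusted p = 0.183), without KO replicate 1 (adjusted p = 0.132) and without KO replicate 2 (adjusted p = 0.148). EFNA3 averaged 1.33 ± 0.390 CPM in T133A, 1.21 ± 0.183 CPM in KO and 1.118 ± 0.320 CPM in WT and passed nothing. EFNA3 shares 44.7% and EFNA4 14.96% of its exon bases with AL691442.1, which had 0 counts in every library. Whether reads in the shared bases were left out of the counting was not tested. EFNA5, a ligand that shapes visual maps, had 33.98 and 33.5 CPM in T133A, 31.7 and 32.2 CPM in KO, and 30.9 and 26.9 CPM in WT, and EFNA2 was near 1 CPM. Neither passed a comparison.

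All 3 transmembrane ephrin-B ligands differed between T133A and KO, and not in the same direction. Of all genes, 39.9% passed in that comparison. All 3 also passed in KO against WT, beside 46.6% of all genes, and 1 in T133A against WT, beside 9.55%. EFNB1 had 43.5 and 33.9 CPM in T133A, 17.8 and 20.8 CPM in KO, and 26.4 and 24.5 CPM in WT, in the order T133A, WT, KO with no overlap. The log2 fold change was 0.60 (SE 0.14, edgeR adjusted p = 0.00673) in T133A against WT, -0.40 (SE 0.15, edgeR adjusted p = 0.0303) in KO against WT and 1.001 (SE 0.14, edgeR adjusted p = 7.41e-06) in T133A against KO. The first was lost without WT replicate 2 (adjusted p = 0.103) and without T133A replicate 1 (adjusted p = 0.068), and the second with DESeq2 (adjusted p = 0.0764), without WT replicate 1 (adjusted p = 0.193), without WT replicate 2 (adjusted p = 0.0671) and without KO replicate 1 (adjusted p = 0.211).

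EFNB2, a ligand of EPHB4 that marks arteries, ran the other way. It had 7.59 and 9.47 CPM in T133A, 17.8 and 16.4 CPM in KO, and 8.18 and 7.92 CPM in WT. T133A overlapped WT, and both KO libraries lay above the other 4. The log2 fold change was 1.09 (SE 0.17, edgeR adjusted p = 1.79e-05) in KO against WT and -1.003 (SE 0.17, edgeR adjusted p = 5.37e-05) in T133A against KO. EFNB2 shares 26.2% of its exon bases with AL138689.2, which reached at most 0.0607 CPM. EFNB3 had 8.34 and 5.94 CPM in T133A, 3.16 and 4.04 CPM in KO, and 6.43 and 7.36 CPM in WT, with both KO libraries lowest and T133A overlapping WT. It fell in KO against WT, log2 fold change -0.93 (SE 0.23, edgeR adjusted p = 0.00227), and T133A exceeded KO, log2 fold change 0.98 (SE 0.23, edgeR adjusted p = 0.00172).

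Of the 7 secreted class 3 semaphorins, 4 fell in KO against WT. These were 57.1% of those tested, where 46.6% of all genes passed in either direction and 23% fell. In T133A against WT 1 passed, lower, 14.3% of those tested beside 9.55% of all genes. In T133A against KO 4 were higher and 1 lower, 71.4% beside 39.9%. The summed level of the 7 was 483 and 512 CPM in T133A, 329 and 259 CPM in KO, and 529.7 and 516 CPM in WT. SEMA3B, a ligand of neuropilin-plexin-A complexes long studied as a candidate suppressor in lung cancer, had 158 and 130.0 CPM in T133A, 25.9 and 28.8 CPM in KO, and 176 and 185 CPM in WT. Both KO libraries lay far below the other 4. It was 6.59-fold lower in KO than in WT, a log2 fold change of -2.72 (SE 0.12, edgeR adjusted p = 3.09e-14), the deepest fall of the 45 genes. T133A exceeded KO with a log2 fold change of 2.40 (SE 0.12, edgeR adjusted p = 2.22e-13). T133A against WT gave a log2 fold change of -0.32 (SE 0.11, edgeR adjusted p = 0.0689) and passed under 8 of 16 alternatives.

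SEMA3F, which binds neuropilin-2 and lies 78.48 kb from SEMA3B on chromosome 3, had 21.5 and 15.3 CPM in T133A, 10.9 and 9.69 CPM in KO, and 24.4 and 20.9 CPM in WT. KO was lowest and T133A overlapped WT. It fell in KO against WT, log2 fold change -1.14 (SE 0.17, edgeR adjusted p = 9.93e-06), and T133A exceeded KO, log2 fold change 0.84 (SE 0.17, edgeR adjusted p = 0.00045). SEMA3A, the founding growth-cone repellent and a ligand of neuropilin-1, had 98.1 and 123 CPM in T133A, 58.6 and 52.5 CPM in KO, and 134 and 131 CPM in WT, with no overlap of groups. It fell in KO against WT, log2 fold change -1.25 (SE 0.12, edgeR adjusted p = 1.06e-08), and T133A exceeded KO, log2 fold change 0.99 (SE 0.12, edgeR adjusted p = 4.75e-07).

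SEMA3C, SEMA3E, SEMA3A and SEMA3D lie in that order on chromosome 7, and their results differed. SEMA3D had 3.22 and 2.76 CPM in T133A, 1.21 and 1.35 CPM in KO, and 2.10 and 3.07 CPM in WT. Its KO against WT fall, log2 fold change -1.01 (SE 0.33, edgeR adjusted p = 0.0161), was lost with DESeq2 (adjusted p = 0.101), with the GC and length correction (adjusted p = 0.114), with the replicate block and that correction (adjusted p = 0.124), without WT replicate 2 (adjusted p = 0.232) and without KO replicate 1 (adjusted p = 0.0719), and T133A exceeded KO, log2 fold change 1.22 (SE 0.33, edgeR adjusted p = 0.00491). SEMA3E, which can bind plexin-D1 without a neuropilin, had 2.47 and 2.23 CPM in T133A, 4.73 and 4.04 CPM in KO, and 4.03 and 4.24 CPM in WT. Here T133A was lowest and KO overlapped WT. The T133A against WT fall, log2 fold change -0.81 (SE 0.26, edgeR adjusted p = 0.0491), was lost in 10 of 15 alternatives, among them without WT replicate 1 (adjusted p = 0.193), without WT replicate 2 (adjusted p = 0.253), without T133A replicate 1 (adjusted p = 0.116) and without T133A replicate 2 (adjusted p = 0.132). T133A against KO gave a log2 fold change of -0.89 (SE 0.26, edgeR adjusted p = 0.00779) and was lost with DESeq2 (adjusted p = 0.0614). SEMA3C, the most abundant class 3 gene per length in T133A and KO, had 198 and 238 CPM in T133A, 227 and 163 CPM in KO, and 188 and 172 CPM in WT and passed no comparison.

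The membrane-bound semaphorins split by gene. Of 9 tested, 1 rose and 1 fell in T133A against WT, and 1 rose and 2 fell in KO against WT. In T133A against KO 3 were higher and 1 lower. Those that passed made 22.2%, 33.3% and 44.4%, beside 9.55%, 46.6% and 39.9% of all genes. SEMA4B had 432 and 358 CPM in T133A, 224 and 247 CPM in KO, and 224 and 226 CPM in WT, with T133A above the other 4 libraries and KO overlapping WT. The log2 fold change was 0.81 (SE 0.11, edgeR adjusted p = 1.28e-05) in T133A against WT and 0.75 (SE 0.11, edgeR adjusted p = 7.27e-06) in T133A against KO. SEMA6B, a ligand of A-class plexins, had 23.1 and 14.7 CPM in T133A, 55.7 and 65.1 CPM in KO, and 17.1 and 17.8 CPM in WT. Both KO libraries stood far above the rest. It rose in KO against WT, log2 fold change 1.79 (SE 0.16, edgeR adjusted p = 5.44e-09), and T133A lay below KO, log2 fold change -1.68 (SE 0.16, edgeR adjusted p = 1.66e-08).

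SEMA4G had 32.8 and 24.4 CPM in T133A, 20.6 and 24.9 CPM in KO, and 56.8 and 62.8 CPM in WT. Both WT libraries lay above the other 4, and T133A overlapped KO. It fell in T133A against WT, log2 fold change -1.07 (SE 0.14, edgeR adjusted p = 1.31e-05), and in KO against WT, log2 fold change -1.39 (SE 0.14, edgeR adjusted p = 4.77e-08). SEMA4G shares 22.3% of its exon bases with MRPL43, a mitochondrial ribosome gene that had 49.96 and 43.5 CPM in T133A, 68.0 and 67.9 CPM in KO, and 48.4 and 50.1 CPM in WT, and the strand setting of the counting is not given in the sources used here. SEMA4D, the ligand of plexin-B1 that also acts in immune cells, had 26.6 and 24.99 CPM in T133A, 14.6 and 14.96 CPM in KO, and 24.6 and 26.3 CPM in WT, with KO lowest and T133A overlapping WT. It fell in KO against WT, log2 fold change -0.78 (SE 0.14, edgeR adjusted p = 7.53e-05), and T133A exceeded KO, log2 fold change 0.80 (SE 0.14, edgeR adjusted p = 6.81e-05). SEMA4F had 37.7 and 31.4 CPM in T133A, 23.1 and 27.4 CPM in KO, and 31.1 and 28.2 CPM in WT. Both T133A libraries lay above both KO libraries. T133A exceeded KO, log2 fold change 0.45 (SE 0.14, edgeR adjusted p = 0.0117), a result lost without T133A replicate 1 (adjusted p = 0.0709) and without KO replicate 1 (adjusted p = 0.146). SEMA4C, a ligand of plexin-B2, had 28.7 and 27.4 CPM in T133A, 21.6 and 23.2 CPM in KO, and 25.3 and 21.9 CPM in WT and passed no comparison.

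Of the 9 plexins, the semaphorin receptors, 2 rose and 2 fell in T133A against WT. In KO against WT 2 rose and 5 fell, and PLXNA4 was among those that rose in both. In T133A against KO 5 were higher. Those that passed made 44.4%, 77.8% and 55.6%, beside 9.55%, 46.6% and 39.9% of all genes. The 44.4% and 77.8% include PLXNA4, which entered the test only through the groups where it was high. PLXNA2 had 15.8 and 11.6 CPM in T133A, 6.07 and 7.16 CPM in KO, and 26.5 and 26.7 CPM in WT, with WT highest, T133A between and KO lowest. Its log2 fold change was -0.96 (SE 0.16, edgeR adjusted p = 0.000237) in T133A against WT, -2.00 (SE 0.17, edgeR adjusted p = 2.27e-09) in KO against WT and 1.04 (SE 0.18, edgeR adjusted p = 5.79e-05) in T133A against KO. PLXNB1, the SEMA4D receptor, followed the same order with 59.8 and 56.97 CPM in T133A, 33.5 and 37.9 CPM in KO, and 75.00 and 73.9 CPM in WT. KO against WT gave a log2 fold change of -1.06 (SE 0.11, edgeR adjusted p = 9.48e-08) and T133A against KO gave a log2 fold change of 0.71 (SE 0.11, edgeR adjusted p = 3.27e-05). T133A against WT gave a log2 fold change of -0.35 (SE 0.11, edgeR adjusted p = 0.0497), just inside the threshold, and was lost in 7 of 16 alternatives, among them without WT replicate 1 (adjusted p = 0.357), without WT replicate 2 (adjusted p = 0.272), without T133A replicate 1 (adjusted p = 0.0666) and without T133A replicate 2 (adjusted p = 0.0796).

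PLXNA3, on the X chromosome, had 36.9 and 35.5 CPM in T133A, 19.9 and 17.9 CPM in KO, and 37.6 and 34.8 CPM in WT. KO lay below the other 4 libraries and T133A overlapped WT. It fell in KO against WT, log2 fold change -0.94 (SE 0.13, edgeR adjusted p = 3.98e-06), and T133A exceeded KO, log2 fold change 0.94 (SE 0.13, edgeR adjusted p = 4.79e-06). PLXNA1 ran against it, with 131 and 117 CPM in T133A, 137 and 155 CPM in KO, and 106 and 104 CPM in WT and a KO against WT rise, log2 fold change 0.48 (SE 0.11, edgeR adjusted p = 0.000836). PLXND1, a receptor of SEMA3E known from vessel patterning, had 129 and 104 CPM in T133A, 55.4 and 73.8 CPM in KO, and 88.2 and 83.7 CPM in WT, in the order T133A, WT, KO with no overlap. Its log2 fold change was 0.44 (SE 0.13, edgeR adjusted p = 0.0295) in T133A against WT, -0.41 (SE 0.13, edgeR adjusted p = 0.0126) in KO against WT and 0.85 (SE 0.13, edgeR adjusted p = 1.50e-05) in T133A against KO. The first was lost with library-size scaling only (adjusted p = 0.0804), without WT replicate 1 (adjusted p = 0.0965), without WT replicate 2 (adjusted p = 0.219) and without T133A replicate 1 (adjusted p = 0.202), and the second without WT replicate 1 (adjusted p = 0.0807) and without KO replicate 1 (adjusted p = 0.238). Without KO replicate 2 the KO against WT log2 fold change was -0.65.

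PLXNB2, the most abundant plexin, had 493 and 418 CPM in T133A, 371 and 388 CPM in KO, and 376 and 402 CPM in WT. KO overlapped WT, and T133A exceeded KO, log2 fold change 0.26 (SE 0.10, edgeR adjusted p = 0.0491), a result lost in 8 of 16 alternatives, among them without WT replicate 1 (adjusted p = 0.124), without WT replicate 2 (adjusted p = 0.126), without T133A replicate 1 (adjusted p = 0.242) and without KO replicate 1 (adjusted p = 0.162). PLXNA4 and PLXNC1 were near the filter's level. PLXNA4, an A-class plexin, had 25 and 21 reads in T133A, 18 and 23 in KO, and 9 and 4 in WT. Both WT libraries were below the filter's level of 0.578 CPM and the other 4 above it. PLXNC1, a receptor of SEMA7A, had 1.61 and 1.29 CPM in T133A, 1.40 and 1.45 CPM in KO, and 2.34 and 2.79 CPM in WT. Its KO against WT fall, log2 fold change -0.84 (SE 0.34, edgeR adjusted p = 0.0435), was lost in 10 of 15 alternatives, among them without WT replicate 1 (adjusted p = 0.0925), without WT replicate 2 (adjusted p = 0.249), without KO replicate 1 (adjusted p = 0.118) and without KO replicate 2 (adjusted p = 0.102).

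The 2 neuropilins, co-receptors for class 3 semaphorins and for vascular endothelial growth factor, differed in behaviour. NRP2 had 153 and 133.3 CPM in T133A, 106 and 103 CPM in KO, and 71.1 and 77.3 CPM in WT, in the order T133A, KO, WT with no overlap. Its log2 fold change was 0.95 (SE 0.11, edgeR adjusted p = 1.56e-06) in T133A against WT, 0.50 (SE 0.11, edgeR adjusted p = 0.000662) in KO against WT and 0.45 (SE 0.11, edgeR adjusted p = 0.00162) in T133A against KO. NRP1 was the more abundant of the pair in every library. Its level was 351 and 372 CPM in T133A, 404 and 443 CPM in KO, and 391 and 389 CPM in WT, with log2 fold changes of -0.11 (SE 0.10, edgeR adjusted p = 0.559) in T133A against WT and 0.12 (SE 0.10, edgeR adjusted p = 0.344) in KO against WT. Neither passed, and T133A against KO, log2 fold change -0.23 (SE 0.10, edgeR adjusted p = 0.0726), passed under 5 of 16 alternatives.

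Per length, EPHA2 and PLXNB2 led in all 3 groups. By mean FPKM, the leading genes in T133A were EPHA2 at 68.2 ± 2.91, PLXNB2 at 62.2 ± 6.28, SEMA4B at 55.8 ± 6.51 and SEMA3C at 34.5 ± 4.99 (SD, n = 2). In KO they were EPHA2 at 61.8 ± 3.90, PLXNB2 at 52.2 ± 2.71, NRP1 at 36.7 ± 3.12 and SEMA4B at 33.5 ± 3.02. In WT they were PLXNB2 at 53.2 ± 2.25, EPHA2 at 47.9 ± 1.17, NRP1 at 33.6 ± 0.252 and SEMA4B at 31.9 ± 0.00736. SEMA3B stood at 24.8 ± 3.06 FPKM in T133A, 4.74 ± 0.461 FPKM in KO and 31.04 ± 0.933 FPKM in WT, and SEMA6B at 4.23 ± 1.26 FPKM in T133A, 13.7 ± 1.77 FPKM in KO and 3.93 ± 0.109 FPKM in WT. EFNA1 and EPHA2, ligand and receptor, were unequal in every group, with EFNA1 at 19.3 ± 2.90 FPKM in T133A, 2.66 ± 0.605 FPKM in KO and 5.96 ± 0.0948 FPKM in WT. The summed CPM of all 53 genes was 3039 ± 189 in T133A, 2452 ± 35.2 in KO and 2558 ± 11.9 in WT.

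**Figure D3:**
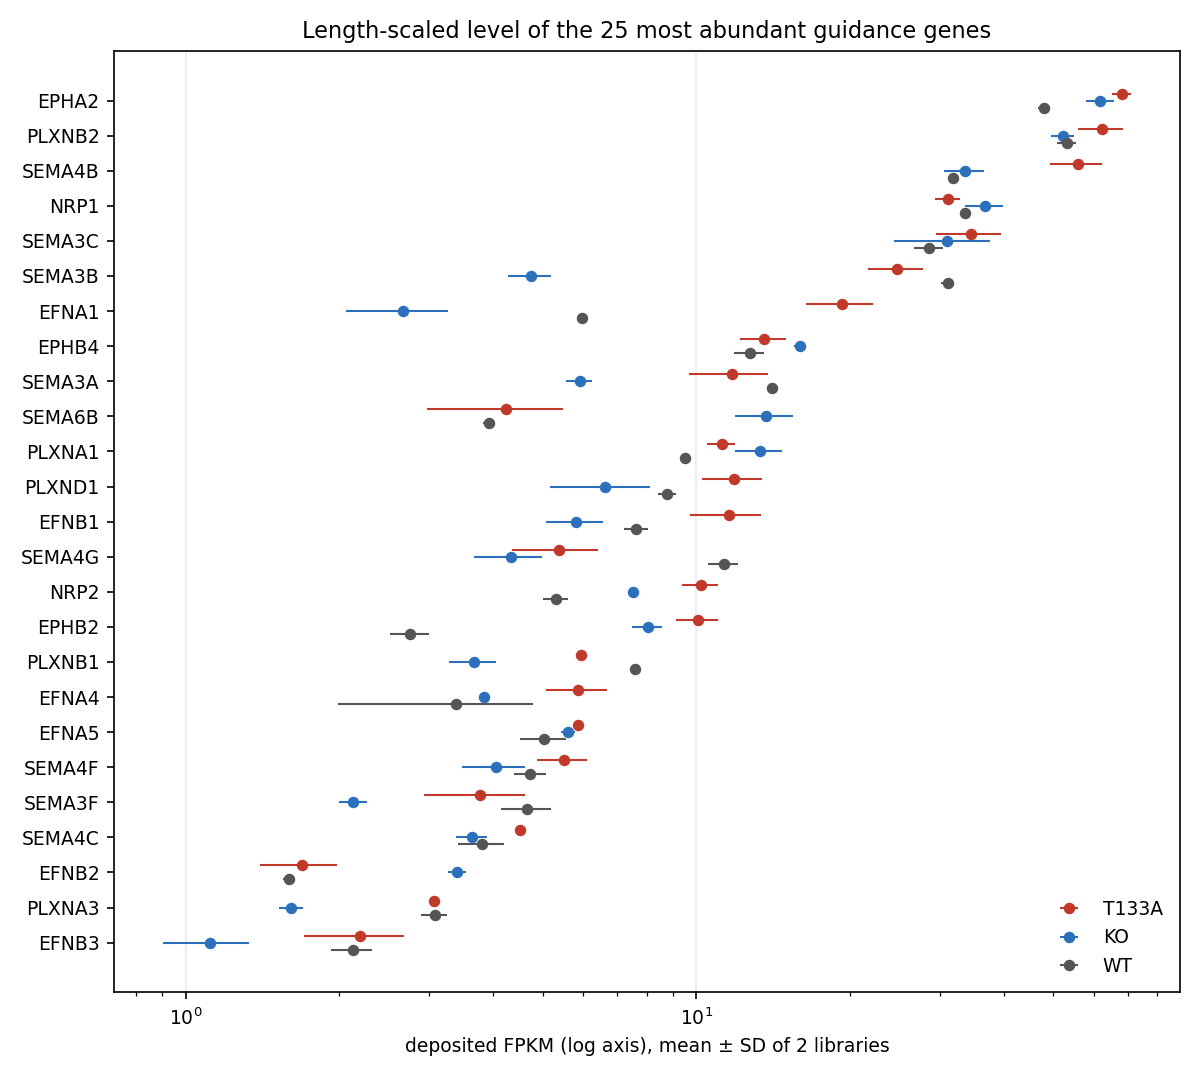
Mean deposited FPKM (x axis, log scale) of the 25 members with the highest level in T133A, KO and WT, with SD over 2 libraries. EPHA2 and PLXNB2 are the highest in all 3 groups, and SEMA3B stands at 4.74 FPKM in KO against 31.0 FPKM in WT.

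The 14 tested genes that passed nothing were EFNA2, EFNA3, EFNA5, EPHA5, EPHA10, EPHB6, NRP1, PLXNB3, SEMA3C, SEMA3G, SEMA4C, SEMA6A, SEMA6C and SEMA7A. Their log2 fold changes ran from -0.94 to 1.43 and the smallest adjusted p among them was 0.0596. Of them, 5 reached 10 CPM in a group, namely NRP1, SEMA3C, EFNA5, SEMA4C and EPHA5.

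Genes that act beside or below these receptors were counted from 4 lists of 80 genes in all, 71 of which could be tested. In T133A against WT 11 rose and 2 fell, 18.3% of those tested beside 9.55% of all genes. In KO against WT 22 rose and 18 fell, 56.3% beside 46.6%. In T133A against KO 19 were higher and 13 lower, 45.1% beside 39.9%. CHL1, NTN5, UNC5A and RGMA passed at least 1 comparison but reached the filter's level in only some groups. Without them, 20 rose and 16 fell in KO against WT, and 18 were higher in T133A than in KO. Of the 64 genes at the filter's level in all 3 groups, 20.3% passed in T133A against WT. In KO against WT 56.2% of them passed, and in T133A against KO 48.4%. The 11 became 4 without WT replicate 1, 5 without WT replicate 2 and 7 without T133A replicate 1, and the 2 became 6 without T133A replicate 2. The 18 that fell in KO became 10 without WT replicate 1. Of T133A against KO, the 19 became 11 without KO replicate 1, and the 13 became 8 without T133A replicate 2 and 8 without KO replicate 2.

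Of 27 semaphorin and plexin signalling genes, 4 passed in T133A against WT, all higher, and 11 rose and 4 fell in KO against WT. These were 14.8% and 55.6%, beside 9.55% and 46.6% of all genes. CHL1, among the 4 that fell, reached the filter's level only in T133A and WT. DPYSL3, a member of the collapsin response mediator family that links semaphorins to microtubules, had log2 fold changes of 0.79 (SE 0.12, edgeR adjusted p = 0.000134) in T133A against WT and 1.66 (SE 0.12, edgeR adjusted p = 2.30e-10) in KO against WT. DPYSL4 of the same family had a log2 fold change of 1.53 (SE 0.14, edgeR adjusted p = 7.76e-09) in KO against WT. RND1, a GTPase that binds plexins, fell in KO against WT, log2 fold change -1.41 (SE 0.27, edgeR adjusted p = 0.000187), and rose in T133A against WT, log2 fold change 0.99 (SE 0.22, edgeR adjusted p = 0.00479). CHL1, an adhesion protein that joins neuropilin-1 complexes, had 66 and 73 reads in T133A, 6 and 2 in KO, and 68 and 44 in WT, so both KO libraries were below the filter's level. MICAL2, a redox enzyme acting on actin, rose in KO against WT, log2 fold change 0.65 (SE 0.10, edgeR adjusted p = 1.94e-05).

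Of 21 tested Eph and ephrin signalling genes, 3 rose and 1 fell in T133A against WT, and 4 rose and 7 fell in KO against WT. These were 19.05% and 52.4%, beside 9.55% and 46.6% of all genes. DOCK4, an activator of the GTPase Rac, rose in T133A against WT, log2 fold change 1.08 (SE 0.14, edgeR adjusted p = 8.50e-06). NGEF, the exchange factor ephexin, rose in T133A, log2 fold change 0.90 (SE 0.20, edgeR adjusted p = 0.00445), and in KO, log2 fold change 1.07 (SE 0.20, edgeR adjusted p = 0.000136), each against WT. VAV2, an exchange factor in Eph endocytosis, rose in T133A, log2 fold change 0.44 (SE 0.13, edgeR adjusted p = 0.0292), and in KO, log2 fold change 0.66 (SE 0.13, edgeR adjusted p = 0.000186), each against WT. The adaptor GRB7 fell in KO against WT, log2 fold change -1.27 (SE 0.21, edgeR adjusted p = 2.72e-05), as did the kinase SRC, log2 fold change -0.58 (SE 0.11, edgeR adjusted p = 0.000117). The T133A against WT result was lost for NGEF without T133A replicate 1 (adjusted p = 0.117) and for VAV2 with library-size scaling only (adjusted p = 0.0794), without WT replicate 1 (adjusted p = 0.278), without WT replicate 2 (adjusted p = 0.193) and without T133A replicate 1 (adjusted p = 0.0832).

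Of 11 tested netrins and netrin receptors, 1 passed in T133A against WT, and 3 rose and 5 fell in KO against WT. These were 9.09% and 72.7% of those tested, beside 9.55% and 46.6% of all genes. UNC5A and RGMA among the 3, and NTN5 among the 5, reached the filter's level in only some groups. The 72.7% includes these genes, which entered the test only through groups where they were high. NTN1, the founding netrin, rose in KO against WT, log2 fold change 2.43 (SE 0.31, edgeR adjusted p = 1.33e-06). NTN4, a netrin of basement membranes, fell in KO against WT, log2 fold change -0.66 (SE 0.10, edgeR adjusted p = 1.64e-05), and was the gene that rose in T133A against WT, log2 fold change 0.41 (SE 0.10, edgeR adjusted p = 0.01). The NTN4 result in T133A against WT was lost without WT replicate 1 (adjusted p = 0.256) and without WT replicate 2 (adjusted p = 0.103). The netrin receptors NEO1 and UNC5D fell in KO against WT, log2 fold change -0.57 (SE 0.10, edgeR adjusted p = 0.000101) and -1.20 (SE 0.16, edgeR adjusted p = 1.45e-06), while UNC5A had 19 and 12 reads in T133A, 23 and 38 in KO, and 4 and 9 in WT, with WT below the filter's level. Of 12 tested SLIT and ROBO genes, 3 rose and 1 fell in T133A against WT, and 4 rose and 2 fell in KO against WT. These were 33.3% and 50%, beside 9.55% and 46.6% of all genes. The ligand SLIT3 rose in KO against WT, log2 fold change 1.53 (SE 0.12, edgeR adjusted p = 5.74e-10), and the ligand SLIT2 rose in T133A against WT, log2 fold change 1.54 (SE 0.34, edgeR adjusted p = 0.00445), which was lost without WT replicate 1 (adjusted p = 0.055). The GTPase-activating protein SRGAP3 fell in T133A, log2 fold change -1.25 (SE 0.18, edgeR adjusted p = 3.74e-05), and in KO, log2 fold change -1.80 (SE 0.19, edgeR adjusted p = 5.60e-08), each against WT. SRGAP1 fell in KO against WT, log2 fold change -0.66 (SE 0.11, edgeR adjusted p = 5.75e-05), and EVL, an actin regulator of the Ena/VASP family, rose, log2 fold change 0.66 (SE 0.14, edgeR adjusted p = 0.000359).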

How the data were processed

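Whole-number read counts per gene, not normalized, were deposited by the authors for 6 libraries, with FPKM values deposited beside them. HISAT2 2.0.5, featureCounts 1.5.0 and GRCh38 are named per the submitters' processing notes. Per the labels' protocols, RNA was taken up in Trizol from cells grown with 10% serum. For both the strand setting and the annotation, details were not given in the sources used here. Overlapping genes may share counts. Deposited FPKM served to compare levels between genes, and is also given by group for some genes, without a test. The tables held 27 gene names turned into dates, none of them a member.

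Genes were chosen by name, with earlier results of these data known, as were the lists and alternatives. All 58735 genes entered 1 fit with edgeR 4.0.16 in R 4.3.3 (quasi-likelihood test, robust, TMM, filterByExpr, group as the only term), which tested 16340. P-values were two-sided, adjusted by Benjamini-Hochberg per comparison over all genes tested, threshold 0.05. Each standard error is the absolute log2 fold change over the square root of F. Values are given in every library for members that passed a comparison; other members are given by range, and up to 5 genes of each further list by smallest adjusted p. Alternatives were RLE and library-size scaling, DESeq2 1.42.0, limma-voom (limma 3.58.1), other filters, a fit of the compared groups, a replicate block, a GC and length correction, and leaving out each library. The fit was tested on simulated counts with known changes. By comparison, it recovered 49.3% to 51.5% of 1.5-fold changes, 60% to 78.9% of 2-fold changes and 90.2% to 96.7% of 4-fold changes. In each comparison 60 to 72 genes were changed at each of these sizes, among 15886 to 15926, with 6 to 7 false calls. In the libraries themselves 46.6% of genes passed in KO against WT. Recovery with so large a share of changes was not tested, so these rates hold for the simulated counts only. A count of 0 allows up to 3 counts, 0.160 to 0.184 CPM by library, counting error only. Each motif was searched on both strands.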

Additional observations from a re-analysis of the deposited data

How the results depend on the processing

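Of the 60 results in which a gene here passed a comparison, 2 of them of PLXNA4, 38 passed under every alternative fit other than the crossed block, 6 of 13 in T133A against WT, 16 of 26 in KO against WT and 16 of 21 in T133A against KO, and none changed direction. Values of members that did not pass crossed the threshold 63 times under these fits. Requiring in addition a log2 fold change of at least 1 in size left 3 members higher and 1 lower in T133A against WT. It left 4 and 11 in KO against WT, and 5 and 2 in T133A against KO. For the other pathway genes it left 2 and 1, 8 and 6, and 5 and 3. Counting only genes at the filter's level in all 3 groups, members gave 2 and 1, 3 and 11, and 5 and 2. Other pathway genes then gave 2 and 1, 6 and 4, and 4 and 3. At that size 2.64%, 15.2% and 12.8% of all genes passed. DESeq2 gave 2 members lower in T133A against WT and 12 other pathway genes higher in T133A against KO. Scaling by library size only gave 7 other pathway genes higher and 5 lower in T133A against WT, and 6 members lower in T133A against KO. The GC and length correction, alone or with the replicate block, gave 5 members lower in T133A against KO and 4 other pathway genes lower in T133A against WT. The cause of these shifts was not tested. Leaving out 1 library at a time gave 6 to 10 members higher and 2 to 6 lower in T133A against WT, 5 to 8 and 12 to 19 in KO against WT, and 15 to 19 and 3 to 5 in T133A against KO. For the other pathway genes it gave 4 to 14 and 2 to 6, 15 to 22 and 10 to 20, and 11 to 17 and 8 to 13. The labels give no shared batch for equal replicate numbers. The correlation of replicate deviations across genes was -0.16 for T133A with WT, 0.0959 for KO with WT and -0.315 for T133A with KO. Whether libraries of different groups shared a batch was not tested. With the replicate block, 9 members were higher and 3 lower in T133A against WT, 8 and 17 in KO against WT, and 17 and 3 in T133A against KO. A crossed replicate block, chosen after seeing the data, gave 8 members lower in T133A against WT, 6 lower in T133A against KO, and 8 other pathway genes lower in T133A against WT. Replicates differed along GC content across genes, with a Spearman correlation of 0.71 in T133A, -0.44 in KO and -0.28 in WT. The log2 fold changes had Spearman correlations with GC content across genes of 0.24 in T133A against WT, 0.33 in KO against WT and -0.23 in T133A against KO.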
